A study of Mus musculus with 4 samples.

Results

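The transcripts described here are those of 10 genes of MHC class I antigen processing and presentation: the heavy chains H2-K1 and H2-D1, their light chain B2m, the peptide transporter subunits Tap1 and Tap2, the transporter's partner Tapbp, the immunoproteasome subunits Psmb8, Psmb9 and Psmb10, and the transactivator Nlrc5. They were taken by symbol, and each symbol matched 1 row of the 31253 genes in the deposited feature table. Their counts were followed in 5 classes of cells sorted from the mouse left ventricle, and the HFpEF diet was compared with the normal diet (NC) in each class.

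MHC class I molecules present peptides from the inside of a cell to CD8+ T cells. The proteasome cuts proteins into peptides, and the immunoproteasome is a form of it whose catalytic subunits are exchanged in inflamed tissue. The transporter made of TAP1 and TAP2 carries the peptides into the endoplasmic reticulum, where tapasin (Tapbp) and other chaperones help load them onto a heavy chain paired with beta-2-microglobulin (B2m). Interferons are known inducers of these genes, and NLRC5 is a transactivator of class I promoters. ECs are in direct contact with circulating T cells, and they carry class I molecules constitutively.

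The scecRNA-seq data comprised 4 libraries. The 2 NC libraries came from mice fed a control rodent diet in which fat supplied 10% of the energy. The 2 HFpEF libraries came from mice given a high-fat diet (60% of energy) with L-NAME, an inhibitor of nitric oxide synthases, at 0.5 mg/ml. In all 4, the mice carried the R26-stop-tdTomato reporter and a tamoxifen-inducible Cdh5-CreER, so that red fluorescent protein (RFP) marked cells with a history of Cdh5 promoter activity, on a background of 1 or 2 floxed Scarb1 alleles. RFP-positive cells were sorted and counted with the 10x Chromium 3′ assay, in which each unique molecular identifier (UMI) stands for 1 captured transcript. The labels give the diet of each library but neither its Scarb1 genotype nor the number of mice behind it. The paper compared 4 groups, with 1 or 2 floxed alleles under each diet, and reported lower Scarb1 expression where both alleles were floxed. The 2 libraries of a diet may therefore differ in genotype and need not be replicates of 1 condition. The p-values and standard errors rest on the spread between libraries, whatever its source, including that of UMI counting. The fit draws each gene's spread toward that of all genes tested.

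Of 41843 deposited cells, 40154 had over 200 genes and under 20% mitochondrial UMIs. The libraries held 11163876 to 48003732 UMIs, and the median kept cell held 3754 and 4127 UMIs in NC against 1736.5 and 1619 in HFpEF. Libraries shared 10 to 42 cell barcodes in pairs, at most 0.728% of the smaller library. Clusters were built without the 10 genes, their pathway genes and a list of 10 interferon-induced genes. Interferon-induced genes outside that list were not left out. The clusters were named from marker genes. This gave 18873 capillary ECs, 3249 artery ECs, 982 vein ECs, 1694 mural cells and 366 blood cells. Another 14420 cells lay in capillary-type clusters left unnamed, whose leading genes held more markers of another class. These cells were 22.3% and 19.2% of the kept cells in NC against 43.6% and 43.9% in HFpEF. The labels call all cells endothelial. The EC marker genes Pecam1, Cdh5, Kdr, Tie1 and Egfl7 summed to 4172 to 5049 CPM, UMIs of a gene scaled to a common library total, in capillary ECs, 2224 to 2691 CPM in mural cells and 1824 to 2178 CPM in blood cells, so the mural and blood sums held EC transcripts in every library. Different clusters filled the capillary class in the diets. The clusters led by Adm and by Timp4 held 28.3% to 38.8% each of NC capillary ECs and 6.27% to 18.5% of HFpEF capillary ECs, whereas the cluster led by Cxcl10 held 4.45% and 4.78% in NC and 20.4% and 29.6% in HFpEF.

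Positions are given on GRCm38, and 7 of the 10 genes sit in or beside the MHC on chromosome 17 (GENCODE). H2-K1 (ENSMUSG00000061232) spans chr17:33996017-34000347 on the minus strand, and H2-D1 (ENSMUSG00000073411) spans chr17:35262730-35267499 on the plus strand. Psmb9 (minus strand), Tap1, Psmb8 and Tap2 (plus strand) follow each other within chr17:34181987-34216321, and the Psmb9 and Tap1 bodies overlap on opposite strands, while Tapbp lies at chr17:33915899-33929292 on the plus strand. B2m (ENSMUSG00000060802) lies at chr2:122147686-122153083, Psmb10 at chr8:105935735-105938444 and Nlrc5 at chr8:94434356-94527272. All 10 are annotated as protein-coding.

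RefSeq promoter windows (GRCm38.p6; 250 bases before to 50 bases after a transcription start) were given for 8 of the 10 genes; Tap2 and Nlrc5 had no entry. The windows are shown for the heavy chains and B2m, which had the largest counts among the 10 genes, and for Psmb8, which had the only match to the GAS element. The capitals mark the matches to 3 short motifs searched on both strands: GAAANNGAA, a core of interferon-stimulated response elements; TTCNNNGAA, the GAS element of interferon-responsive promoters; and GGGNNTTCC, a NF-kB element. Positions count back from the start, the last base before it being -1.
H2-K1 (chr17:34000298-34000597, minus strand): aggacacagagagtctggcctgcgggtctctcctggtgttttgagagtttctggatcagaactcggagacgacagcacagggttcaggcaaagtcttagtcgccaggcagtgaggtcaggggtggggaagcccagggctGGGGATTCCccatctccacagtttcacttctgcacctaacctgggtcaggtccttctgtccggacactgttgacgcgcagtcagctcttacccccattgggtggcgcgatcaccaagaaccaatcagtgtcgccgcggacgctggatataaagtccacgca
H2-D1 (chr17:35262844-35263143, plus strand): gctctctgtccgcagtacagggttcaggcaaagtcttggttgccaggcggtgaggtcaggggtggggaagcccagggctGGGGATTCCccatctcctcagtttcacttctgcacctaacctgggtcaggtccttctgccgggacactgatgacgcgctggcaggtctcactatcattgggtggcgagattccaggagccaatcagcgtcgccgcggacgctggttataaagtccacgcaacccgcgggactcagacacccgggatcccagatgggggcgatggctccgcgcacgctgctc
B2m (chr2:122147437-122147736, plus strand): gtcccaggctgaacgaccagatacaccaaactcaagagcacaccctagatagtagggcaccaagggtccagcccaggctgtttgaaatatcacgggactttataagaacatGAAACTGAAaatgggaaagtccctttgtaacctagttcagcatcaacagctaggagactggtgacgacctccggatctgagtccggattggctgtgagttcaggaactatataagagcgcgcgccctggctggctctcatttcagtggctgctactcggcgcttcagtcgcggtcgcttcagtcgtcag
Psmb8 (chr17:34197945-34198244, plus strand): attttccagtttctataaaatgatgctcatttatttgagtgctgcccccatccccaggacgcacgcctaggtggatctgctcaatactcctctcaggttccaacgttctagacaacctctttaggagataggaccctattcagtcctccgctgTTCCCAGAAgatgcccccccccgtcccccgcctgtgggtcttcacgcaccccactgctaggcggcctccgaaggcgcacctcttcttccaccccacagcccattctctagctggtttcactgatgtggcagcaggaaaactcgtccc

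The H2-K1 and H2-D1 windows held the same NF-kB letters, GGGGATTCC, at -111 to -103 and at -171 to -163. These letters lay in a run of 47 bases that both windows shared. A later H2-K1 start, whose window overlapped the first, held the same site at -125 to -117. The B2m window held the interferon-response core GAAACTGAA at -139 to -131, and the Psmb8 window held the GAS letters TTCCCAGAA at -97 to -89. No match was found in the windows of Tap1, Psmb9, Tapbp and Psmb10. Only the letter patterns given above were searched. Interferon-response elements with other letters or spacing were not searched for, in the heavy-chain windows or in any other. A window without a match to the core may therefore still hold such an element. The Tap1 and Psmb9 windows shared 275 bases, because their RefSeq starts lie 226 bases apart on opposite strands. GENCODE, which gave the gene positions above, places some starts elsewhere. The whole H2-D1, Psmb8 and Tapbp windows lie inside the GENCODE gene bodies. Of all 32851 promoter windows of this length, 8.56% held the interferon-response core, 8.30% the GAS element and 5.82% the NF-kB element, so that 1, 1 and 2 of the 8 genes is a description of these windows and no more.

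The comparison of HFpEF with NC asked whether the class I genes of the sorted cells differed with the diet. B2m was higher in both HFpEF libraries than in both NC libraries in every class, by 1.25-fold in blood cells to 1.63-fold in mural cells, and the test passed in mural cells. H2-K1 showed no overlap between diets in 4 classes, with 1.25-fold to 1.42-fold higher levels in HFpEF there, and passed the test in no class. Nlrc5 was 1.71-fold higher in capillary ECs and did not pass the test there. Of all genes tested, 18.4% (blood cells) to 26% (capillary ECs) lay higher in both HFpEF libraries. All classes share the same libraries. The immunoproteasome genes and H2-D1 overlapped between the diets in capillary ECs.

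**Figure D1:**
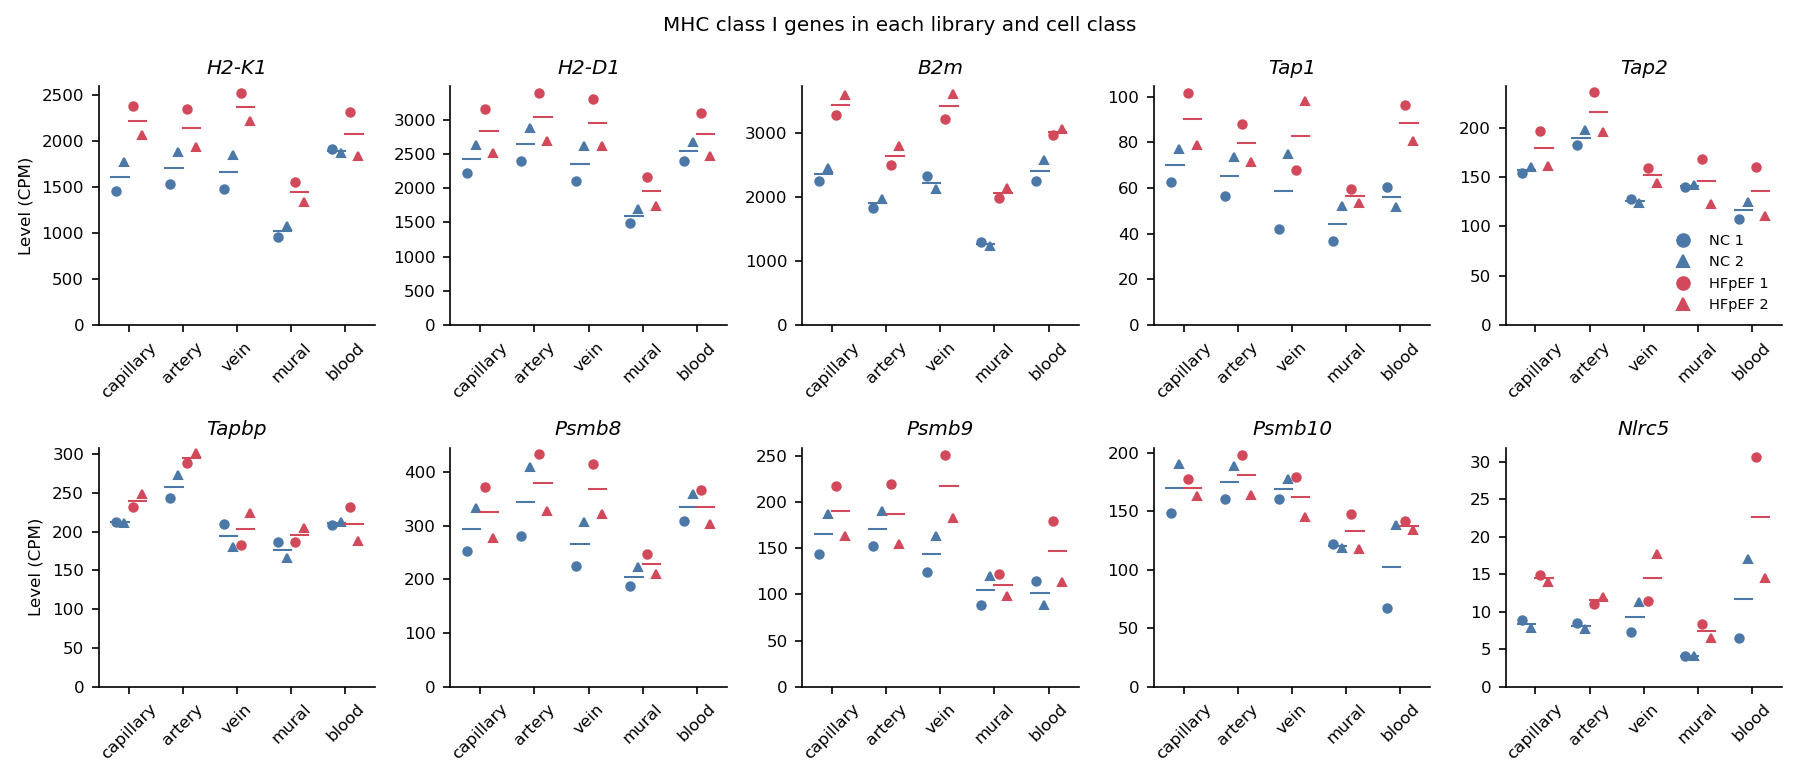
Level of each of the 10 genes (CPM, axes from 0) in the 5 cell classes, with NC libraries in blue, HFpEF libraries in red, circles for library 1, triangles for library 2 and bars for the mean of a diet. B2m in both HFpEF libraries lies above both NC libraries in every class, while Psmb10 overlaps in every class.

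In capillary ECs all 10 genes were tested with edgeR's quasi-likelihood test, and 0 of 10 had an adjusted p under 0.05, against 0.727% of the 12375 genes tested. At an unadjusted p under 0.05, 3 of the 10 were higher in HFpEF (B2m, H2-K1 and Nlrc5), against 11.1% of all genes. DESeq2 called 2 of the 10, B2m and H2-K1, and 350 of the 10455 genes to which it gave an adjusted p. Without NC library 2, edgeR called 511 of 12691 genes, among them both B2m in capillary ECs and H2-K1 in capillary ECs (adjusted p = 0.0347), and Nlrc5 in capillary ECs was called without NC library 1 (0.0336; 470 of 12706 genes called) or HFpEF library 1 (0.0360; 734 of 12615). The diets did not overlap, with HFpEF above, for 6 of the 10, against 26% of all genes, and none lay below. The median log2 fold change of the 10 was 0.21, with a range of 0.00 to 0.78, against -0.01 for all genes. Leaving out 1 library moved that median between 0.11 (without HFpEF library 1) and 0.40 (without HFpEF library 2), and it was also higher without NC library 2. With the unnamed clusters joined to the capillary ECs, the median was 0.24 and edgeR called 0 of the 10 (1 of 12501 genes).

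In artery ECs 0 of 10 tested genes were called, against 0.397% of all genes, and DESeq2 called none of them (26 of 9317 genes). B2m alone had an unadjusted p under 0.05 (6.56% of all genes, HFpEF higher), and 4 of 10 did not overlap, with HFpEF above (21.8% of all genes). In vein ECs 9 of the 10 passed the filter on low counts and 0 were called by either tool. Of all genes, edgeR called 0.13% there and DESeq2 called 10 of 1433. There, 5 of the 9 had an unadjusted p under 0.05 with HFpEF higher (B2m, H2-K1, Psmb9, Tap1 and Psmb8; 5.15% of all genes), and 6 of 9 did not overlap (20.1% of all genes). The median log2 fold change was 0.20 in artery ECs and 0.44 in vein ECs, against 0.00 for all genes in either class. In artery ECs the median ran from 0.0815 without NC library 1 to 0.38 without NC library 2, and it was also lower without HFpEF library 1 and higher without HFpEF library 2. In vein ECs it ran from 0.26 without NC library 1 to 0.61 without NC library 2.

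In mural cells 1 of 10 tested genes was called, B2m, against 0.611% of all genes. H2-K1 also had an unadjusted p under 0.05 (2 of 10, against 6.09% of all genes), and 5 of 10 lay higher in both HFpEF libraries (20.1% of all genes). In blood cells 9 of the 10 passed the filter, and 0 were called by edgeR or DESeq2. Of all 5055 genes, edgeR called 0% and DESeq2 called 1. None of the 9 had an unadjusted p under 0.05 (3.11% of all genes, HFpEF higher), and B2m and Tap1 lay higher in both HFpEF libraries (2 of 9, against 18.4%). The median log2 fold change was 0.22 in mural cells, and there it was 0.34 without HFpEF library 2 and -0.0196 with cells thinned to 1000 UMIs. In blood cells the median was 0.13, which turned to -0.0196 without HFpEF library 1 and reached 0.30 without HFpEF library 2, and it was also lower without NC library 1 and higher without NC library 2. The blood sums held 155153 and 528017 UMIs in NC and 163585 and 687044 UMIs in HFpEF. Their make-up differed between the diets, with 0 and 2 neutrophils in NC against 3 and 26 in HFpEF and a neutrophil list at 58.0 and 4828 against 5471 and 10269 CPM. The part of this shift in the blood values was not tested.

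**Figure D2:**
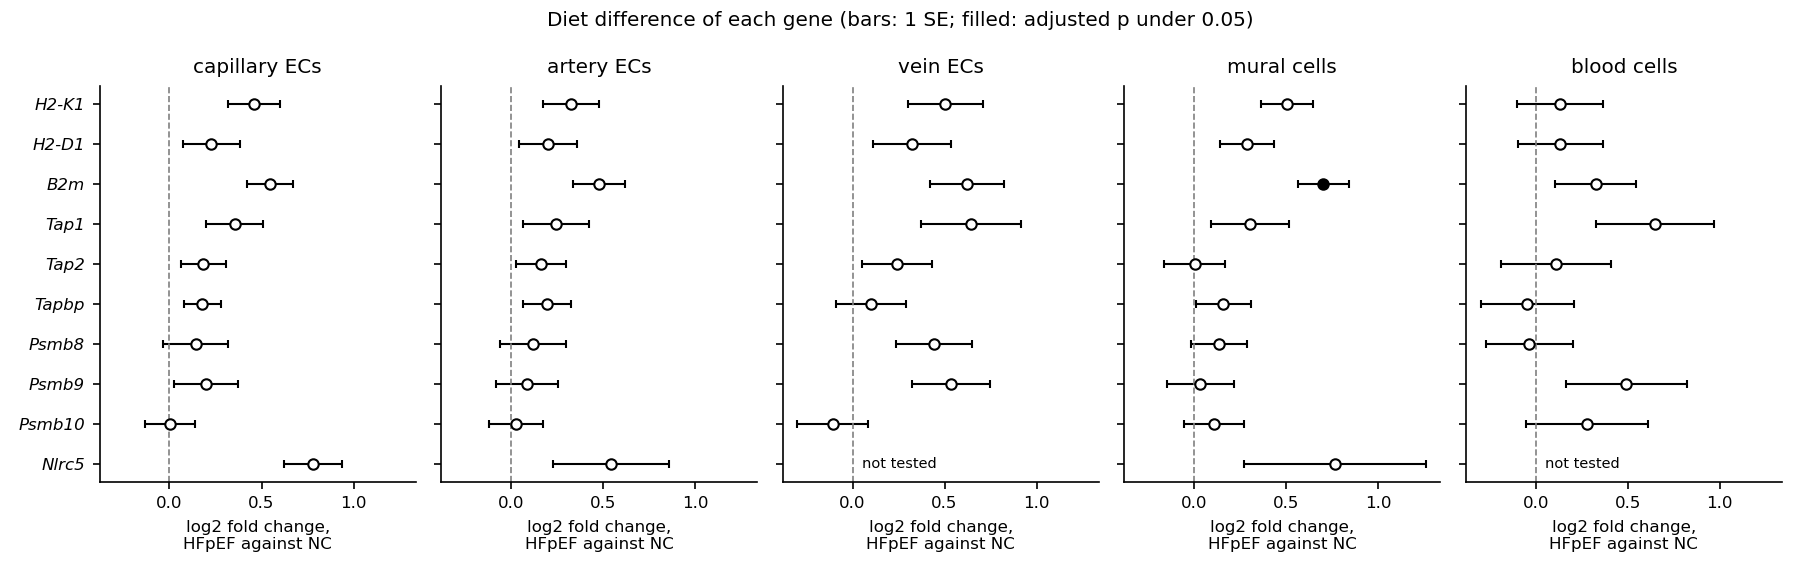
Log2 fold change of each gene in HFpEF against NC (points) with 1 standard error (bars) from the fit in each cell class, filled where the adjusted p was under 0.05. The filled point is B2m in mural cells at 0.70, and Nlrc5 was not tested in vein ECs and blood cells.

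B2m encodes beta-2-microglobulin, the light chain that every classical class I heavy chain needs to reach the cell surface. Its level in capillary ECs was 2261 and 2456 CPM (NC) against 3286 and 3603 CPM (HFpEF). The HFpEF libraries were both higher, and the gap between diets was wider than the gap within either. The log2 fold change was 0.55 ± 0.12 (SE, n = 2 libraries each; edgeR adjusted p = 0.0804), from 17170 to 91460 UMIs per library.

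In artery ECs B2m measured 1840 and 1975 CPM (NC) against 2504 and 2801 CPM (HFpEF), a log2 fold change of 0.48 ± 0.14 (edgeR adjusted p = 0.184). Vein ECs held 2329 and 2133 CPM (NC) against 3233 and 3623 CPM (HFpEF), a log2 fold change of 0.62 ± 0.20 (edgeR adjusted p = 0.329). Mural cells held 1304 and 1237 CPM (NC) against 1983 and 2147 CPM (HFpEF). The log2 fold change in mural cells was 0.70 ± 0.14 (edgeR adjusted p = 0.0191), the 1 call among the 10 genes, and B2m rose there in both HFpEF libraries. The call of B2m in mural cells was lost without NC library 2 (edgeR adjusted p = 0.147), without the cells of highest Scrublet doublet score (0.0746), with cells gated one by one (0.109) and with cells thinned to 1000 UMIs (0.339), at log2 fold changes of 0.66, 0.61, 0.54 and 0.58. In blood cells B2m was 2250 and 2578 CPM (NC) against 2980 and 3077 CPM (HFpEF), a log2 fold change of 0.33 ± 0.22 (edgeR adjusted p = 0.897).

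Markers of other cells differed between libraries in the capillary sums. The neutrophil and erythroid lists were higher in both HFpEF libraries, whereas the cardiomyocyte list exceeded both NC libraries in HFpEF library 1 alone. The neutrophil list summed to 0.155 and 0.715 CPM (NC) against 3.22 and 14.1 CPM (HFpEF), the erythroid list to 499.6 and 335.9 against 553.0 and 1208 CPM, and the cardiomyocyte list to 91.7 and 58.5 against 262.0 and 81.9 CPM. The leukocyte list (Ptprc, Cd52, Coro1a and Laptm5) was at 0.516 to 0.876 CPM. In artery ECs the erythroid list summed to 0.610 and 1.79 against 288.4 and 36.7 CPM and the cardiomyocyte list to 45.5 and 32.2 against 152.5 and 38.4 CPM, and their part in the artery values was not tested. In mural cells the cardiomyocyte list summed to 46.1 and 33.9 against 173.7 and 90.7 CPM, and its part in the B2m call was not tested. The EC list summed there to 2464 and 2475 CPM (NC) against 2224 and 2691 CPM (HFpEF), and its part was not tested either. B2m in blood cells was on average at 0.88 of its level in capillary ECs of the same library. The blood sums held the EC list at 1824 to 2178 CPM, so this ratio is not the level of leukocytes alone. The part of transcripts of other cells, of free RNA and of depth per cell in the diet differences was not tested beyond the settings that follow. With thinned cells the log2 fold change of B2m in capillary ECs was 0.58, and without hemoglobin-rich cells it was 0.55.

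H2-K1 and H2-D1 encode the classical heavy chains of this mouse background. In capillary ECs H2-K1 was counted at 1457 and 1765 CPM (NC) against 2377 and 2059 CPM (HFpEF). The diets did not overlap, but the NC libraries differed by about as much as the nearest libraries across diets, and the log2 fold change was 0.46 ± 0.14 (edgeR adjusted p = 0.129). H2-D1 measured 2222 and 2623 CPM (NC) against 3158 and 2517 CPM (HFpEF), so that HFpEF library 2 lay within the NC range (log2 fold change 0.23 ± 0.15, edgeR adjusted p = 0.423). In mural cells H2-K1 was 960.8 and 1074 CPM (NC) against 1558 and 1337 CPM (HFpEF) (log2 fold change 0.51 ± 0.14, edgeR adjusted p = 0.135). Its log2 fold change was 0.33 ± 0.15 in artery ECs and 0.50 ± 0.20 in vein ECs, both without overlap, and 0.13 ± 0.23 in blood cells, where the libraries overlapped. H2-D1 lay between 0.13 and 0.32 on the log2 scale in the 5 classes, and HFpEF was above NC without overlap in vein ECs and mural cells. H2-K1, H2-D1 and the H2-Q genes are similar in sequence, and reads that fit more than 1 of them may have been assigned unevenly or dropped, so the counts of single heavy chains are uncertain.

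Tap1 and Tap2 form the peptide transporter, and tapasin (Tapbp) ties it to the heavy chain. In capillary ECs Tap1 was at 62.9 and 77.0 CPM (NC) against 101.4 and 78.9 CPM (HFpEF), and HFpEF library 2 exceeded NC library 2 by a small margin (log2 fold change 0.35 ± 0.15, edgeR adjusted p = 0.236). Tap2 measured 154.0 and 160.2 CPM (NC) against 197.0 and 161.4 CPM (HFpEF), a log2 fold change of 0.18 ± 0.12. Tapbp was 212.9 and 211.2 CPM (NC) against 231.2 and 248.1 CPM (HFpEF), a log2 fold change of 0.18 ± 0.10. Each of the 3 genes lay higher in both HFpEF libraries, as did 26% of all genes in this class, and none passed the test. For Tap2 too the margin of HFpEF library 2 was small. In vein ECs Tap1 had a log2 fold change of 0.64 ± 0.27, with NC at 42.1 and 75.0 CPM and HFpEF at 67.8 and 98.3 CPM, so that the diets overlapped. Tap1 in vein ECs was at 0.26 without NC library 1, 0.23 without HFpEF library 2 and 1.08 without NC library 2. In blood cells Tap1 was 60.4 and 51.7 CPM (NC) against 96.3 and 80.4 CPM (HFpEF), without overlap, from only 9 to 51 UMIs per library. In mural cells Tap2 had a log2 fold change of 0.00 ± 0.17, and Tapbp had one of 0.16 ± 0.15.

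Psmb8, Psmb9 and Psmb10 encode the catalytic subunits that take the place of Psmb5, Psmb6 and Psmb7 in the immunoproteasome. In capillary ECs Psmb8 was at 253.6 and 333.1 CPM (NC) against 372.3 and 277.6 CPM (HFpEF), and Psmb9 at 143.4 and 186.8 against 218.0 and 163.0 CPM. Psmb10 was at 148.2 and 190.7 CPM (NC) against 177.1 and 163.1 CPM (HFpEF). For all 3 the libraries of a diet differed by more than the diet means, and their log2 fold changes were 0.14 ± 0.18, 0.20 ± 0.17 and 0.00 ± 0.14. In vein ECs Psmb8 (224.4 and 306.5 against 414.6 and 322.6 CPM) and Psmb9 (124.3 and 163.0 against 251.1 and 183.3 CPM) did not overlap, at log2 fold changes of 0.44 ± 0.21 and 0.53 ± 0.21 (edgeR adjusted p = 0.551 and 0.458). Psmb10 overlapped in all 5 classes, with log2 fold changes from -0.11 in vein ECs to 0.28 in blood cells.

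Nlrc5 was the least abundant of the 10 genes by UMIs. In capillary ECs it was counted at 8.92 and 7.80 CPM on the NC side (172 and 153 UMIs) and at 14.9 and 13.9 CPM on the HFpEF side (78 and 354 UMIs). The libraries of a diet lay close together and the diets apart, with a log2 fold change of 0.78 ± 0.16 (edgeR adjusted p = 0.0639). Artery ECs held 8.52 and 7.65 CPM (NC) against 10.99 and 12.02 CPM (HFpEF), a log2 fold change of 0.54 ± 0.31 (edgeR adjusted p = 0.534). Mural cells held 4.14 and 4.04 CPM (NC) against 8.34 and 6.47 CPM (HFpEF), from 6 to 15 UMIs per library. In vein ECs and blood cells Nlrc5 failed the filter on low counts. Its 3 to 24 UMIs per library in vein ECs corresponded to 7.33 and 11.3 CPM (NC) against 11.4 and 17.7 CPM (HFpEF).

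The diet effect of each class was then set against that of capillary ECs in 1 model over 20 class-by-library sums. None of the 10 genes differed at an adjusted p under 0.05 by edgeR in artery ECs (0.35% of all genes), vein ECs (0.17%), mural cells (0.646%) or blood cells (0.637%). At an unadjusted p under 0.05, 0 of 10 differed in artery ECs (4.74% of all genes), 2 in vein ECs (5.08%), 0 in mural cells (6.15%) and 1 in blood cells (8.45%). The effect on Psmb9 and Psmb8 was larger in vein ECs than in capillary ECs by 0.36 ± 0.17 and 0.31 ± 0.15 on the log2 scale (edgeR adjusted p = 0.922 and 0.970). The effect on H2-K1 was smaller in blood cells by 0.33 ± 0.14 (difference -0.33, edgeR adjusted p = 0.424). For B2m the difference from capillary ECs was 0.12 ± 0.13 in mural cells and -0.09 ± 0.13 in artery ECs. The call of B2m in mural cells is thus not shown to differ from its change in capillary ECs.

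Levels were compared between classes within each library, as the log2 ratio of CPM to capillary ECs with 1 CPM added, and without a test because classes were defined from the same cells. Mural cells held less of each of the 10 genes than capillary ECs in 4 of 4 libraries. B2m was at 0.57 of its capillary level there (log2 ratio -0.82 ± 0.10, SD, n = 4), H2-K1 at 0.64 (-0.65 ± 0.05), H2-D1 at 0.67 (-0.58 ± 0.03) and Nlrc5 at 0.54 (-0.89 ± 0.11). Tap2 and Tapbp were nearest to capillary ECs, at 0.85 and 0.82. The median log2 ratio of the 10 genes in mural cells was -0.61, against 0.08 for all genes above 10 CPM. With cells gated one by one on their own marker UMIs the median was -0.31. The EC marker list stood at 2224 to 2691 CPM in mural cells against 4172 to 5049 CPM in capillary ECs. The mural levels thus include EC transcripts, whose part in them was not tested.

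Artery ECs had more Tap2 (1.20 of the capillary level), Tapbp (1.22), Psmb8 (1.16) and H2-D1 (1.08) than capillary ECs, each in 4 of 4 libraries. They had less B2m (0.79), Tap1 (0.91) and Nlrc5 (0.88), also in 4 of 4 libraries. The SDs were 0.03 to 0.07 on the log2 scale, but 0.19 for Nlrc5. Vein ECs had less Tap2 (0.81) and Tapbp (0.86) in 4 of 4 libraries, while H2-K1, H2-D1, B2m, Psmb8, Psmb9, Psmb10 and Nlrc5 lay within 0.10 of capillary ECs on the log2 scale on average. For B2m the order of the classes by their mean ratio was capillary ECs, vein ECs, blood cells, artery ECs and mural cells. Vein ECs and blood cells did not separate beyond their SD (log2 ratios -0.07 ± 0.13 and -0.18 ± 0.13), and capillary and vein ECs did not either. In blood cells Psmb9 (0.64), Psmb10 (0.63) and Tap2 (0.69) were lower than in capillary ECs in 4 of 4 libraries, with wide SDs of 0.43, 0.37 and 0.14 on the log2 scale. So were Tap1 (0.83), Tapbp (0.86) and B2m (0.88), with SDs of 0.32, 0.22 and 0.13. The median log2 ratio of the 10 genes in blood cells was -0.20, against -0.17 for all genes above 10 CPM.

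**Figure D3:**
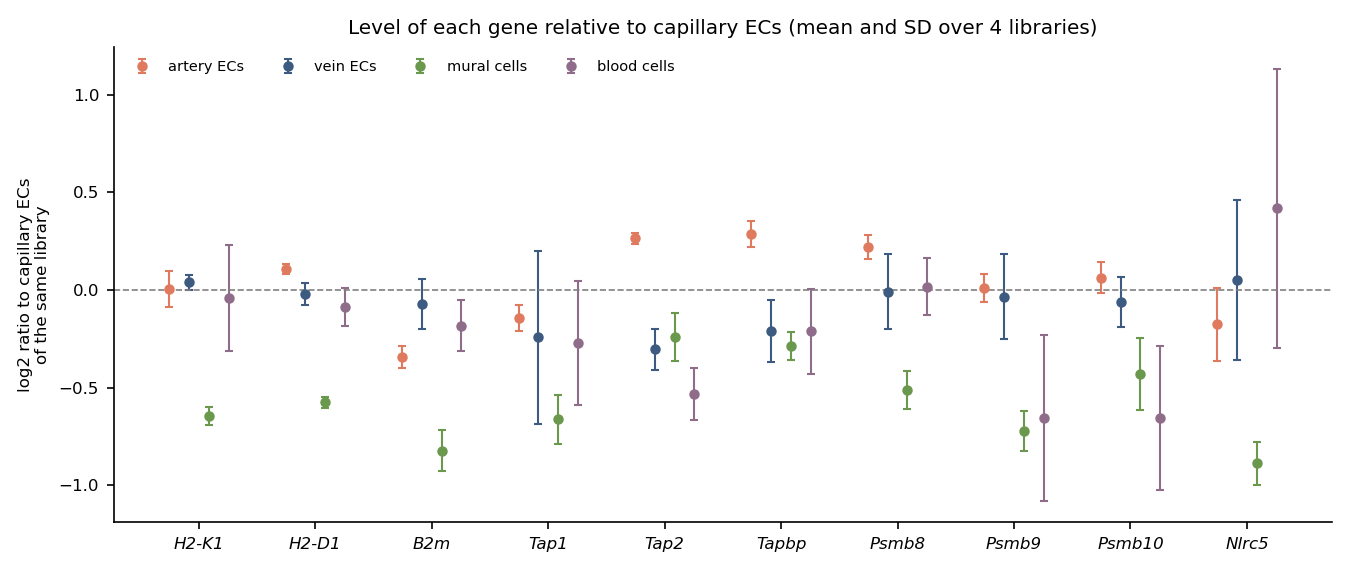
Log2 ratio of the level of each gene in artery ECs, vein ECs, mural cells and blood cells to its level in capillary ECs of the same library (points, mean; bars, SD; n = 4 libraries). Mural cells lie below 0 for all 10 genes, with B2m at -0.82 and Tap2 at -0.24.

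Capillary-type cells fell into 11 clusters, of which 7 were named capillary. Within each cluster B2m was higher in both HFpEF libraries than in both NC libraries, in 11 of 11 clusters, and so was the sum of the 10 genes. H2-K1 did not overlap in 10 of 11 clusters, Tap1 and Nlrc5 in 5, H2-D1 in 4 and Psmb8 in 1, always with HFpEF above. Clusters of 1 library are no replicates of each other, and all 11 clusters share the same 4 libraries. In the whole capillary class 26% of all genes lay higher in both HFpEF libraries, and this share was not computed within clusters. In the cluster led by Adm B2m was 2252 and 2451 CPM (NC) against 3104 and 3429 CPM (HFpEF). In the cluster led by Timp4 it was 2192 and 2272 against 3116 and 3677 CPM. The cluster led by Cxcl10 had 2614 and 3164 against 3517 and 3769 CPM. The cluster led by Ifit3 and Ifit2 had 2770 and 2855 against 3992 and 3972 CPM.

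The highest sum of the 10 genes in every library but HFpEF 2 was in the clusters led by Ifit3 or by Cxcl10. The Ifit3 cluster held 8867 and 9417 CPM (NC) against 11966 and 10116 CPM (HFpEF), and the Cxcl10 cluster held 7651 and 9501 against 10403 and 9742 CPM. In HFpEF library 2 the cluster led by Cysltr1 was higher, at 10445 CPM. Tap1 in the Ifit3 cluster reached 193.6 and 175.4 CPM (NC) against 178.0 and 118.2 CPM (HFpEF), and Nlrc5 reached 46.1 and 25.9 against 27.2 and 26.2 CPM. Those are more than the class-wide levels in each library, and the diets overlapped for both genes. When the clusters led by Ifit3 and by Cxcl10 were left out, the log2 fold change in capillary ECs was 0.50 for B2m, 0.42 for H2-K1 and 0.64 for Nlrc5.

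**Figure D4:**
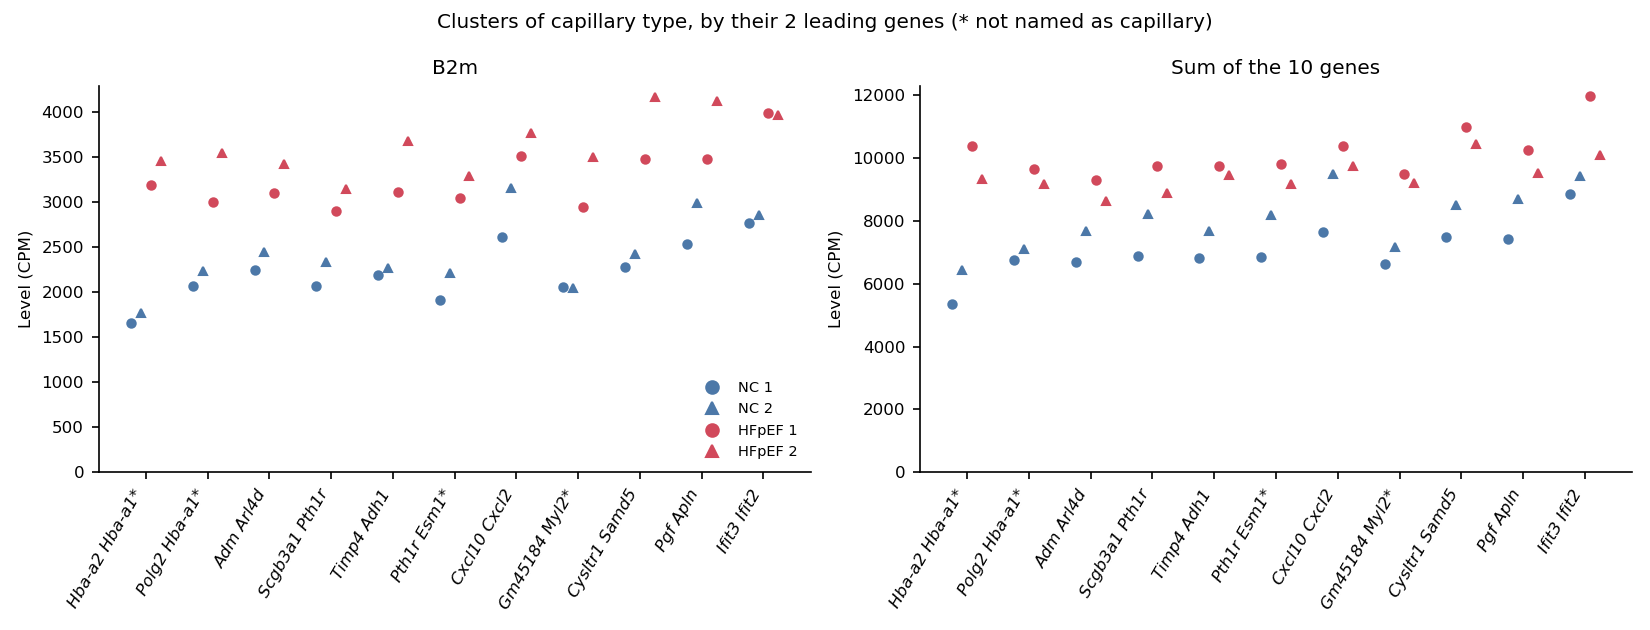
Level of B2m (left) and summed level of the 10 genes (right) in CPM, axes from 0, in the 11 clusters of capillary type named by their 2 leading genes, with NC in blue, HFpEF in red and an asterisk for clusters left unnamed. In all 11 clusters both HFpEF libraries lie above both NC libraries for B2m and for the sum.

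Capillary ECs of at least 1000 UMIs were also thinned to 1000 UMIs each and split by the summed UMIs of 10 interferon-induced genes. These genes include none of the class I genes. Shallower capillary ECs were left out, 27 and 14 cells in NC against 103 and 649 in HFpEF. Cells with 3 or more UMIs of the interferon list were 10.1% and 16.2% of the thinned capillary ECs under NC, against 17.8% and 18.8% under HFpEF. They held 1.15 times as much of the 10 class I genes as the other cells of their library (log2 ratio 0.21 ± 0.03, SD, n = 4). Among single genes the ratio was 1.51 for Tap1, 1.43 for Psmb8, 1.12 for B2m and 1.10 for H2-D1. Among the other cells, which made up 81.2% to 89.9%, the sum was 6825 and 7757 CPM (NC) against 9825 and 9182 CPM (HFpEF), a log2 ratio of HFpEF to NC of 0.38. B2m in these cells was 2188 and 2350 against 3176 and 3523 CPM, or 1.48-fold higher. Tap1 there was 54.3 and 70.2 against 97.1 and 68.6 CPM, and the diets overlapped.

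In the interferon-rich cells Nlrc5 was 9.46 and 11.2 CPM (NC) against 31.7 and 32.4 CPM (HFpEF), whereas in the other cells it was 7.15 and 6.46 against 7.42 and 11.4 CPM. The interferon-rich values rest on 4 and 7 UMIs in NC and 12 and 48 UMIs in HFpEF. The log2 ratio of HFpEF to NC for Nlrc5 in the other cells depended on the split, at 0.42 with 3 or more UMIs, 0.63 with 2 or more and 0.64 with 4 or more, and in the Ifit3 cluster above Nlrc5 overlapped between the diets. The median thinned capillary EC held 6 and 8 UMIs of the 10 genes in NC and 10 and 9 in HFpEF. The 10th percentile was 3 and 4 against 5 and 5 UMIs, and the 90th percentile was 11 and 13 against 16 and 15 UMIs, so the lower and upper ends were higher in HFpEF as well.

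**Figure D5:**
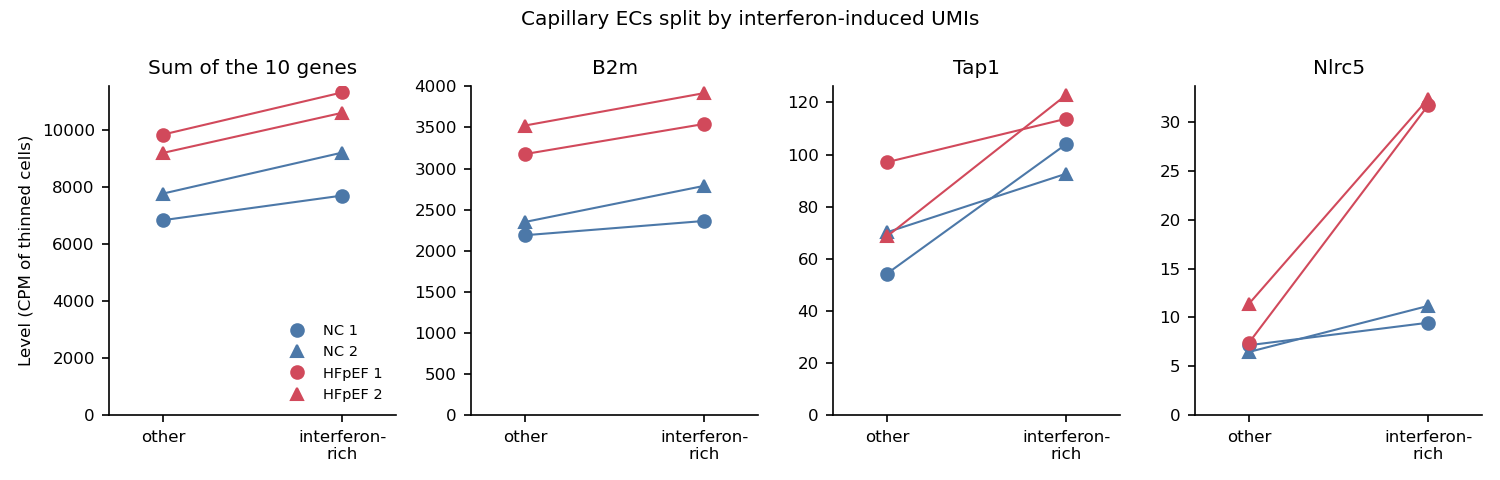
Level in CPM (axes from 0) of the sum of the 10 genes, B2m, Tap1 and Nlrc5 in thinned capillary ECs with 3 or more UMIs of the interferon list (right of each panel) and in the other thinned capillary ECs (left), 1 line per library. The sum and B2m are higher in both HFpEF libraries on either side, and the steep HFpEF lines of Nlrc5 end at 31.7 and 32.4 CPM.

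Genes that act beside the 10 were followed in 6 lists. Of 11 other class I heavy chains and B2m partners, all 11 were tested in capillary ECs and 0 were called, 1 of 10 tested rose in artery ECs and 2 of 9 tested rose in mural cells (0.727%, 0.397% and 0.611% of all genes were called in these classes), and none was called in vein ECs or blood cells. The gene called in both was H2-Q6, a nonclassical heavy chain of the Qa-2 group. Its level in mural cells was 71.5 and 97.9 CPM (NC) against 183.6 and 170.4 CPM (HFpEF) (log2 fold change 1.04 ± 0.17, edgeR adjusted p = 0.00614), and in artery ECs it was 126.6 and 191.7 against 324.8 and 289.0 CPM (0.93 ± 0.17, edgeR adjusted p = 0.0303). H2-Q4 rose in mural cells from 235.8 and 278.2 to 443.6 and 410.4 CPM (0.72 ± 0.14, edgeR adjusted p = 0.0196). In capillary ECs H2-Q10 had the largest change of the list (1.26 ± 0.47), at only 2.13 and 2.85 against 10.1 and 3.58 CPM. Among the genes of the list averaging at least 10 CPM, H2-Q6 changed most there. H2-Q6 was at 129.3 and 185.2 against 333.2 and 294.3 CPM (0.99 ± 0.17, edgeR adjusted p = 0.0505). It was called there in 11 of 16 alternatives, with log2 fold changes of 0.75 to 1.28 over all 16. Calls over all genes ran from 1 to 1391 in the capillary fits (90 in the main fit). Some of these alternatives left 1 library in a diet. The mural call of H2-Q6 was lost with thinned cells. Its artery call was lost without either HFpEF library, with the one-by-one gate and in the Scrublet setting, and the H2-Q4 call was lost without either NC library, with thinned cells and in the same gate and Scrublet settings. H2-Q6 and H2-Q7 are near-identical copies, so their counts cannot be told apart with certainty. Fcgrt, the B2m-binding neonatal Fc receptor, had the most negative log2 fold change of the list in capillary ECs (-0.70 ± 0.19, edgeR adjusted p = 0.103). Its level was 232.7 and 205.1 CPM in NC against 164.4 and 108.4 CPM in HFpEF. Fcgrt was called there in 4 of 16 alternatives, with log2 fold changes of -1.02 to -0.41 over all 16.

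None of the 6 genes of peptide loading and trimming was called in any class. In capillary ECs Erap1, an aminopeptidase that trims peptides, had the largest difference, 37.4 and 42.5 CPM (NC) against 54.4 and 50.6 CPM (HFpEF) (log2 fold change 0.39 ± 0.11, edgeR adjusted p = 0.119), and Lnpep the smallest (0.15 ± 0.11). None of the 3 proteasome activator genes was called, with Psme1 at 0.11 ± 0.11 and Psme3 at -0.07 ± 0.17. None of the 3 constitutive catalytic subunits was called either. Psmb6, which Psmb9 replaces, was 148.4 and 173.7 CPM (NC) against 129.2 and 119.8 CPM (HFpEF) in capillary ECs (-0.37 ± 0.12, edgeR adjusted p = 0.131). It was called there in 1 of 16 alternatives, with log2 fold changes of -0.49 to -0.25 over all 16. Calls over all genes ran from 1 to 1391 in the capillary fits. Psmb7 had a log2 fold change of -0.09 ± 0.14. The median of these 3 subunits lay below 0 in capillary ECs (-0.20), artery ECs (-0.27), vein ECs (-0.23) and mural cells (-0.30) and above 0 in blood cells (0.17), where that of all genes was within 0.01 of 0.

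Of 7 regulators, 6 were tested in capillary ECs and 0 were called in any class. Rfxap is a subunit of the RFX complex that binds MHC promoters. In capillary ECs it had the most negative log2 fold change of the list (-0.57 ± 0.14, edgeR adjusted p = 0.0845). Its level was 65.7 and 79.8 CPM (NC) against 53.2 and 45.9 CPM (HFpEF). Rfxap was called there in 4 of 16 alternatives, with log2 fold changes of -0.70 to -0.42 over all 16. Calls over all genes ran from 1 to 1391 in the capillary fits. Of the 10 interferon-induced genes, 1 was called, in artery ECs, where 0.397% of all genes were called. Ifit2 rose there from 27.7 and 41.8 CPM in NC to 61.1 and 80.7 CPM in HFpEF (1.08 ± 0.20, edgeR adjusted p = 0.0328). The call of Ifit2 in artery ECs was lost with DESeq2 (adjusted p = 0.112), without HFpEF library 1 (edgeR adjusted p = 0.0682) or 2 (0.606) and in 5 other settings. The median log2 fold change of the interferon list was 0.30 in capillary ECs, 0.38 in artery ECs, 0.45 in vein ECs, 0.54 in mural cells and 0.19 in blood cells.

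The genes whose levels over the 20 class-by-library sums were most like the mean profile of the 10 were Samd9l (Pearson r = 0.889), Irgm2 (0.874), Tgtp2 (0.849), Sp100 (0.819) and Igtp (0.793), among 8201 genes above 10 CPM and outside the lists. The 20 points share 4 libraries, and the r values are descriptions. Samd9l in capillary ECs was 70.2 and 105.8 CPM (NC) against 126.9 and 113.6 CPM (HFpEF), and in mural cells 40.8 and 60.8 against 82.2 and 62.3 CPM. Among the 10 genes themselves, r with their mean was highest for H2-D1 (0.946) and H2-K1 (0.909) and lowest for Tapbp (0.647) and Psmb10 (0.647).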

How the data were processed

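Cells of 4 libraries, 2 per diet, were analysed. The authors trimmed reads with fastp, counted UMIs with Cell Ranger (5.0.1; mm10) and downsampled reads between samples, and the deposited counts are raw UMI counts per gene and cell. The members and gene lists were chosen with earlier results of these data known.

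Cells with over 200 genes and under 20% mitochondrial UMIs were kept. Cells were clustered (2000 variable genes without the 10 members, the listed genes, other H2 genes and hemoglobin genes; 10 principal components; 20 neighbours; Louvain, igraph 0.11.9) and named from marker genes. Doublets were not removed. Scrublet's automatic threshold marked 0 to 1 cells per library, so 1 alternative removed the highest scores at 0.8% per 1000 cells. UMIs were summed per library and class and tested with edgeR 4.0.16 (TMM, quasi-likelihood, filter on low counts, Benjamini-Hochberg adjustment over all genes tested) in R 4.3.3, and with DESeq2 1.42.0 as an alternative. An adjusted p under 0.05 was a call. Standard errors are the absolute log2 fold change over the square root of the F statistic of the edgeR test. Values of CPM in the diet comparisons use TMM library sizes, and those by class, cluster or cell use library totals. The scripts were tested on simulated data. The named genes of each pathway list were all those called and, in capillary ECs, the largest and the smallest log2 fold change. These extremes were taken among genes averaging at least 10 CPM. The largest among the regulators is not reported here. Other settings were library totals, no filter, a replicate block, a left-out library, all cells, no hemoglobin-rich cells, thinned cells, a gate on each cell's marker UMIs, and clustering with the members. Settings added later joined the unnamed clusters to the capillary ECs or left out the capillary clusters led by Ifit3 and by Cxcl10. Intervals for single counts are not given, and 2 libraries per diet limit the precision.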

Additional observations from a re-analysis of the deposited data

Results flagged for a closer look

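In cell classes outside the comparisons, B2m in the lowest HFpEF library lay above both NC libraries. These differences were not tested, and the share of all genes that did so was not computed. Among the other class I genes some also lay higher in both HFpEF libraries and many overlapped. Tapbp in fibroblasts and Tap1 in proliferating cells lay lower in both HFpEF libraries. Endocardial cells had 2055 and 2091 CPM in NC against 2998 and 3752 CPM in HFpEF. Lymphatic ECs had 1739 and 1282 CPM against 2230 and 2520 CPM, from 13 and 17 cells against 16 and 54. Fibroblasts had 1498 and 1421 CPM against 2735 and 2202 CPM, from 10 and 24 cells against 19 and 95. Proliferating cells had 2990 and 2958 CPM against 3334 and 3825 CPM, with only 5 cells in HFpEF library 1. The unnamed clusters had 1907 and 2120 CPM against 3042 and 3436 CPM.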

How the results depend on the processing

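Only 2 libraries per diet limit every test, and the HFpEF cells were shallower. A left-out library leaves 1 library in a diet, which is then assumed to vary like the others. Of 693 alternatives for single genes among the 10, 626 kept direction and side of the threshold, 12 gained the call, 4 lost it and 51 turned sign, and 28 of 48 gene-and-class results never turned. B2m kept its direction in all. The cause of the changes was not tested.

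Genes called among the 10 in capillary ECs numbered 2 with DESeq2 (350 of 10455 genes), 3 with no filter (1391 of 18065) and 0 to 2 without 1 library (182 of 12521 to 734 of 12615). In artery ECs 1 was called with no filter (239 of 15511). In mural cells 2 were called with no filter (175 of 15708), 0 with thinned cells (3 of 4993) and 0 with the one-by-one gate (37 of 10997). There, 0 were called without the highest Scrublet scores (33 of 9670), and the call of B2m was lost without NC library 2. Over all genes, calls ranged from 1 to 1391 in capillary ECs (90 in the main fit of edgeR), 1 to 268 in artery ECs (41), 9 to 112 in vein ECs (10), 3 to 175 in mural cells (62) and 0 to 96 in blood cells (0). With the library number as a replicate block, 0, 0, 0, 1 and 0 of the genes were called in capillary, artery, vein, mural and blood cells, and 131, 154, 62, 169 and 22 of all genes. Same-numbered libraries deviated with correlations of 0.01, 0.01, -0.01, 0.00 and 0.13 in these classes. A factor that same-numbered libraries share but that touches few genes would leave such values near 0. They therefore cannot decide whether the numbers pair the libraries.

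Without 1 library the median log2 fold change of the 10 ranged from 0.11 to 0.40 in capillary ECs, 0.0815 to 0.38 in artery ECs, 0.26 to 0.61 in vein ECs, 0.16 to 0.34 in mural cells and -0.0196 to 0.30 in blood cells. The median log2 fold change was 0.22 in vein ECs with the one-by-one gate and -0.0196 in mural cells with thinned cells. The median log2 ratio of the 10 genes in mural cells to capillary ECs was -0.31 with that gate. The log2 ratio of their sum in interferon-rich capillary ECs to the other cells was 0.17 at 2 or more UMIs. At 4 or more UMIs this log2 ratio was 0.26.

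Log2 fold changes turned sign as follows. With thinned cells they were -0.0127 for Psmb8 in artery ECs and -0.0451 for Psmb9 in artery ECs, -0.0292 for Tap2 and 0.0225 for Psmb10 in vein ECs, and in mural cells -0.0339 for Tap2, -0.20 for Tapbp, -0.0346 for Psmb8, -0.0196 for Psmb9 and -0.0631 for Psmb10, while Psme3 in capillary ECs was 0.0476. With no filter they were -0.0132 for Psmb10 in capillary ECs and -0.0046 for Tap2 in mural cells. With library totals they were -0.0277 for Tap2 in mural cells and 0.0034 for Psmb8 in blood cells. With the gate they were -0.0199 for Psmb10 in artery ECs, 0.000785 for Psmb10 in vein ECs and -0.0362 for Psmb10 in mural cells, and 0.0013 for Tapbp in blood cells. Without the highest Scrublet scores they were -0.0155 for Psmb10 in artery ECs, -0.0371 for Tap2 and -0.0543 for Psmb10 in mural cells, and 0.0245 for Psmb8 in blood cells. With the 10 genes kept for clustering they were -0.0109 for Psmb9 and -0.0427 for Psmb10 in artery ECs. Without blood clusters of high EC marker level, chosen after seeing the data, H2-K1 was -0.15 and Psmb8 0.10.

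Without 1 library the ranges that crossed 0 in capillary ECs were -0.0825 to 0.36 for Psmb8, -0.0220 to 0.41 for Psmb9, -0.17 to 0.20 for Psmb10, -0.24 to 0.0633 for Psmb7 and -0.34 to 0.0736 for Psme3. In artery ECs they were -0.14 to 0.42 for Psmb8, -0.14 to 0.36 for Psmb9 and -0.0962 to 0.18 for Psmb10. In vein ECs they were -0.0931 to 0.22 for Tapbp and -0.21 to 0.0875 for Psmb10. In mural cells they were -0.20 to 0.25 for Tap2, -0.16 to 0.29 for Psmb9 and -0.0307 to 0.29 for Psmb10. In blood cells they were -0.0263 to 0.29 for H2-K1, -0.0196 to 0.29 for H2-D1, -0.0846 to 0.44 for Tap2, -0.15 to 0.13 for Tapbp, -0.14 to 0.12 for Psmb8 and -0.0128 to 1.03 for Psmb10.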

Other observations

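Blood cells were followed by type where a library held 10 or more cells of it, with no comparison between diets. B2m in B cells was 2044 CPM in NC library 2 and 2741 and 2906 CPM in the HFpEF libraries. B2m in T cells was 2492 CPM in NC library 2 and 2895 and 2769 CPM in the HFpEF libraries. Macrophages held 2484 CPM in NC library 2 and 3013 CPM in HFpEF library 2. Neutrophils reached 10 cells in HFpEF library 2 alone, where B2m was 2149 CPM, H2-D1 3070 CPM and H2-K1 939.0 CPM.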
